A study of Homo sapiens with 6 samples.

Results

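AP-1 is a family of paired transcription factors, and 8 of its genes were followed here together with EGR1 and MAFF. The genes were FOS, FOSB, FOSL1 and FOSL2 of the FOS family, JUN, JUNB and JUND of the JUN family, the related factor ATF3, the zinc finger factor EGR1, and MAFF, a small MAF protein. They were taken by symbol through the RefSeq gene IDs, 10 genes of 30727 listed, and all 10 passed the filter on low counts that left 15190 genes for testing.

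The libraries hold poly(A) RNA of PANC-1, an established human line of pancreatic ductal carcinoma. The extraction text in the labels also mentions neurons, microglia and astrocytes, although every library is labelled PANC-1. There were 3 libraries of cells given siRNA against SUV420H2 and 3 labelled as control, and all came from the same line. SUV420H2 is an older name of KMT5C, a histone H4 methyltransferase that acts on lysine 20 and is linked to compact chromatin. Neither the kind of control nor the siRNA sequences nor the harvest time is stated in the sources used here. The comparison asks which genes differ between the knockdown and the control libraries, and it cannot part the lowering of KMT5C from other effects of siRNA treatment. Whether separate cultures were used is not stated in the labels, and p-values therefore cover only the spread among these 6 samples, and that spread may be technical.

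FOS and JUN proteins bind DNA as pairs joined by a leucine zipper. JUN proteins can pair with each other or with FOS proteins, whereas FOS proteins need a JUN partner. FOS, FOSB, EGR1 and ATF3 are immediate early genes: their transcription starts from factors already in the cell, within minutes of a growth factor or stress signal through ERK, JNK or p38 kinases, and their mRNAs decay fast. FOSL1, also called FRA1, accumulates under lasting ERK activity and is known for its abundance in invasive carcinoma cells with mutant RAS. Small MAF proteins such as MAFF lack a domain that activates transcription and act through the partners they bind.

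Totals ran from 20863594 to 38022772 reads per library. KMT5C had 9.55, 7.23 and 12.7 CPM (reads per 1000000 reads of the library, TMM-scaled) in the controls and 6.03, 6.11 and 5.86 in the knockdown. The groups did not overlap, as for 71.3% of tested genes. Its log2 fold change was −0.72 (edgeR adjusted p = 0.00227), or −0.50 without control replicate 3 (edgeR adjusted p = 0.000210). The lowering was thus partial, and it did not pass edgeR's glmTreat test against a 1.5-fold change (adjusted p = 0.305). The 7 marker genes of a pancreatic duct carcinoma line were all tested and all called, 5 higher and 2 lower. CDH1 (34.4 to 378 CPM, means of 3 libraries), EPCAM (13.8 to 70.7), KRT7, KRT8 and KRT18 rose, and VIM (5403 to 3813) and KRT19 fell. Their sum, carried mostly by VIM and the keratins KRT8, KRT18 and KRT19, was 7568 to 8789 CPM in the controls and 9802 to 10159 in the knockdown. Of 14 markers of leukocytes, microglia, astrocytes, neurons, endothelium and fibroblasts, 4 passed the count filter. Together the 14 stood at 2.08 to 2.98 CPM in the controls and 4.49 to 5.09 in the knockdown, with AQP4 at 0 in every library; their part in the results was not tested.

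The stretches just upstream of 6 of the genes are shown as examples that hold motifs through which signals to immediate early genes are known to act. They are the 150 bases before the transcription start, from RefSeq on GRCh38.p14, and 9 of the 10 genes had an entry; FOSL1 had none. Capitals mark the cAMP response element core TGACGT on either strand (ACGTCA when read on the other), its variant TGACATCA, and the CArG box, the site of serum response factor. JUND and ATF3 also held such a match within 150 bases, beginning 87 and 123 bases before a start, but are not printed.
FOS, chr14:75278678-75278827, plus strand: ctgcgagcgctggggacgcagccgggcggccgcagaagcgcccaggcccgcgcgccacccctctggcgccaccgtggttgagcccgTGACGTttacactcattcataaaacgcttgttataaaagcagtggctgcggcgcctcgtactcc
FOSB, chr19:45467846-45467995, plus strand: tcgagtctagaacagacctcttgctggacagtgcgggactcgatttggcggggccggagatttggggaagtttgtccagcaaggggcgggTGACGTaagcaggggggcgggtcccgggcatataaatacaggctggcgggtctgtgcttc
FOSL2, chr2:28392708-28392857, plus strand: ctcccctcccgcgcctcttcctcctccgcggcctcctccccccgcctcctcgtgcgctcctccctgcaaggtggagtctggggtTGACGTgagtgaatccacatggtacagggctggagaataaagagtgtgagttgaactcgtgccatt
EGR1, chr5:138465329-138465478, plus strand: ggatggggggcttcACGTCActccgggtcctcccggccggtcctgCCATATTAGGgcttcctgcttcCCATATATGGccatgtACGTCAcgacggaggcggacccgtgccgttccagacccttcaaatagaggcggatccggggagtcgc
MAFF, chr22:38201844-38201993, plus strand: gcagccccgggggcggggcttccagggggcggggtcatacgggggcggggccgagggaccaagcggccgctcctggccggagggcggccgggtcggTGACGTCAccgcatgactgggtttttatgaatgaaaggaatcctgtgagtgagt
JUN, chr1:58784048-58784197, minus strand: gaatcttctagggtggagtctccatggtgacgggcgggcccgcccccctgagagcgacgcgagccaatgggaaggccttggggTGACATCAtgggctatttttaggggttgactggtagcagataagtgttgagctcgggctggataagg

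In the windows with an entry, TGACGT lay within 250 bases upstream of 6 of the 9 genes, namely FOS, FOSB, FOSL2, JUND, EGR1 and MAFF. Of 34943 promoter windows of that length, 7.09% held it. In FOS it began 64 bases before the start, in FOSB 60, in FOSL2 66, in EGR1 67 (with another at 136) and in MAFF 54, so these 5 genes had a match at nearly the same place. JUND had none there: its matches began 200, 198 and 87 bases before the start. In MAFF the match, and in JUND the pair farthest from the start, were part of the full element TGACGTCA, which 1.63% of windows held. JUN had TGACATCA, beginning 67 bases before the start, and ATF3 had it in one of its 2 windows, against 2.37% of all windows. EGR1 was the only one of the 9 with a CArG box in these 250 bases. It had 2, beginning 105 and 83 bases before the start, and 1.16% of windows held one. Bases farther upstream and starts without an entry were not searched, so genes without a match here may have one there. The 2 ATF3 windows began at bases 212565157 and 212614768 of chromosome 1. Whether ATF3 is transcribed from either start in these cells was not tested, so the absence of TGACGT holds for these windows only. The consensus AP-1 site TGACTCA, on either strand, was in none of the 9 genes' windows, against 4.22% of all windows. These matches describe letters in a window and say nothing of binding in these cells.

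**Figure D1:**
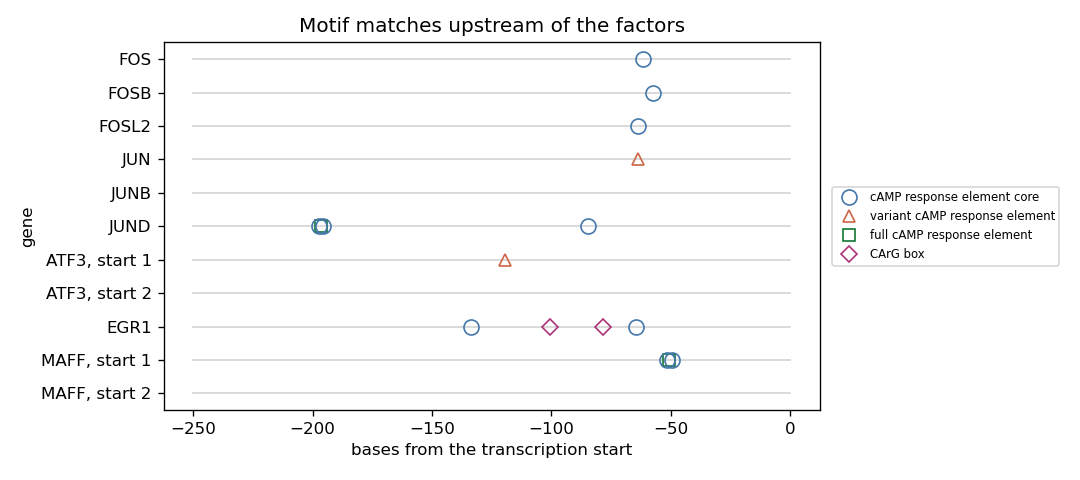
Position of motif matches in the 250 bases upstream of each gene with a promoter entry. The horizontal axis is the distance from the transcription start in bases, each row is 1 window (ATF3 and MAFF have 2), and overlapping symbols mark a core within a full element. FOS, FOSB, FOSL2, JUN and EGR1 have a match close to 60 bases before the start, and MAFF has one a little nearer.

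Of the 10 genes, 7 rose, 1 fell (JUN) and 2 did not pass (FOSL1 and JUND) in edgeR's quasi-likelihood test. Across all tested genes 67.3% were called, 33.1% higher and 34.2% lower in the knockdown, so a call alone is common in these libraries and its size says more. FOSB, FOS, EGR1, ATF3 and MAFF were called and at least 2-fold higher, 5 of 10, against 8.01% of all tested genes, and none was at least 2-fold lower (6.01% of tested genes). The same 5 passed edgeR's glmTreat test against a 1.5-fold change, which 10.6% of tested genes passed in that direction and 9.16% in the other. The median log2 fold change of the 10 was 1.03, beside −0.01 over all tested genes. Control and knockdown values were fully separate for 7 of the 10, a share close to the 71.3% found over all tested genes.

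**Figure D2:**
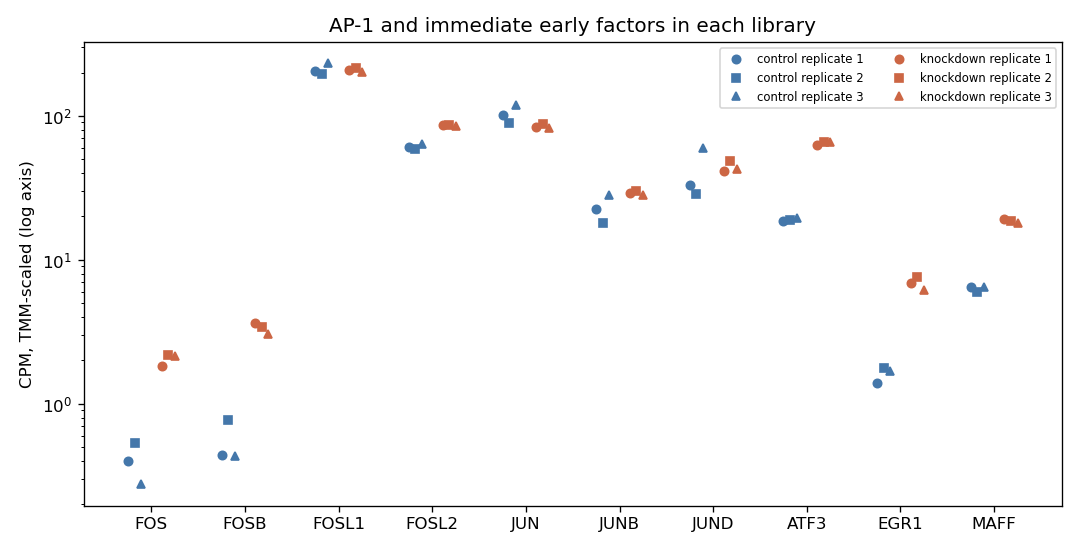
CPM of each gene in each library on a log axis; blue points are the 3 control and orange points the 3 knockdown libraries, with a symbol for each replicate. FOS, FOSB, EGR1, ATF3 and MAFF are parted widely, while FOSL1 overlaps between the groups and JUND in control replicate 3 lies above all knockdown values.

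FOS, the founding FOS protein and a classic immediate early gene, was nearly silent in the controls. Its counts there were 10, 11 and 7 reads, or 0.400, 0.530 and 0.274 CPM, and in the knockdown 70, 59 and 64 reads, or 1.83, 2.17 and 2.13 CPM. All 3 knockdown libraries were above all controls. The log2 fold change was 2.35 (5.11-fold, SE 0.229; adjusted p = 4.24e-06 in edgeR), larger than the spread between libraries. From 28 reads in the controls together and 193 in the knockdown, the depth-corrected ratio was 5.15, with an exact 95% interval of 3.45 to 7.95 that covers counting error only. Of all tested genes, 1.69% had a larger log2 fold change.

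FOSB, the second immediate early member of the FOS family, rose the most of the 10. It had 11, 16 and 11 reads in the controls (0.439, 0.771 and 0.431 CPM) and 139, 92 and 92 in the knockdown (3.63, 3.39 and 3.06 CPM). The groups were far apart, with the highest control well below the lowest knockdown library. The log2 fold change was 2.65 (6.27-fold, SE 0.204; adjusted p = 6.37e-07 in edgeR), with a counting interval of 4.53 to 9.13 around a ratio of 6.35.

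FOSL1 was by far the most abundant member of the family and did not pass the test. It had 205, 194 and 231 CPM in the controls and 207, 214 and 202 in the knockdown, and every knockdown value lay inside the range of the controls. The log2 fold change was −0.02 (SE 0.0607; adjusted p = 0.798 in edgeR), between −0.07 and 0.05 over the alternatives. FOSL2, or FRA2, which like FOSL1 lacks the activating end of FOS, had 60.6, 59.0 and 63.4 CPM in the controls and 86.0, 86.0 and 85.7 in the knockdown. It rose by 0.49 on the log2 scale (SE 0.0457, 1.41-fold, edgeR adjusted p = 2.86e-06), a rise that did not pass the test against 1.5-fold (adjusted p = 1; lowest over the alternatives 3.06e-15). RefSeq places an antisense gene, FOSL2-AS1, over FOSL2; whether strand was used in counting is not stated, so reads of the pair cannot be told apart.

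Levels of different genes were compared on the deposited RPKM, which divide by length. FOSL1 made up 94.0 ± 0.380% (SD, n = 3) of the summed FOS family RPKM in the controls and 90.7 ± 0.202% in the knockdown. FOSL2 went from 5.73 ± 0.281% to 7.86 ± 0.204%, FOS from 0.149 ± 0.0584% to 0.726 ± 0.0659% and FOSB from 0.116 ± 0.0495% to 0.682 ± 0.0520% (SD, n = 3 each). The shares of FOSL1 were lower and those of the other 3 higher in every knockdown library than in any control. The sum of the family was 123 ± 9.74 RPKM in the controls and 128 ± 3.47 in the knockdown (SD, n = 3), with overlapping values. FOS and FOSB stayed under 1 RPKM after their rises, at knockdown means of 0.928 and 0.872, while FOSL1 stood at 116 RPKM in each group.

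**Figure D3:**
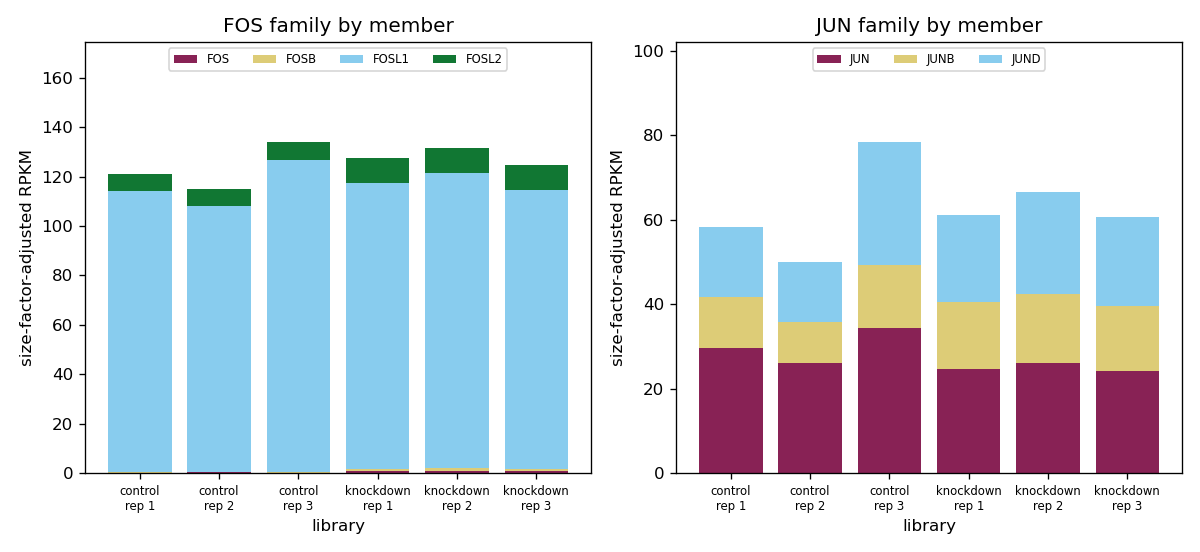
Stacked size-factor-adjusted RPKM of the FOS family (left) and JUN family (right) in each of the 6 libraries. FOSL1 fills over 90% of every FOS family bar, and the tallest JUN family bar is control replicate 3 at 78.5 RPKM.

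JUN, the founding member of the JUN family, was the only one of the 10 that fell. It had 102, 89.2 and 119 CPM in the controls and 84.0, 88.5 and 82.2 in the knockdown. The groups did not overlap, but the highest knockdown library was close to the lowest control. It fell by 0.29 on the log2 scale (SE 0.0859; adjusted p = 0.0121 in edgeR), and −0.18 without control replicate 3 (adjusted p = 0.000857; range over all alternatives 3.73e-06 to 1, where 1 is the test against 1.5-fold).

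The values of JUNB and JUND shifted when control replicate 3 was left out, and for JUND the call changed too. JUNB, often a weaker activator than JUN, had 22.6, 17.9 and 28.3 CPM in the controls and 29.1, 30.2 and 28.3 in the knockdown, and control replicate 3 overlapped the lowest knockdown library. It rose by 0.34 on the log2 scale (SE 0.125, edgeR adjusted p = 0.0311), or 0.51 without control replicate 3 (adjusted p = 3.56e-07). Its call was lost when any one of the other 5 libraries was left out (adjusted p = 0.0552 to 0.0976) and in the test against 1.5-fold (adjusted p = 1). JUND, which is expressed in most resting cells, had 33.2, 28.7 and 59.7 CPM in the controls and 41.7, 48.7 and 42.5 in the knockdown. It did not pass (log2 fold change 0.12, SE 0.208, edgeR adjusted p = 0.637), but was higher by 0.50 without control replicate 3 (adjusted p = 1.49e-07, range 1.49e-07 to 1). Without control replicate 1 the JUND value was −0.003, and without control replicate 2 it was −0.07. Neither passed (edgeR adjusted p = 0.991 and 0.734). RefSeq has JUNB overlapping HOOK2, and how reads of the shared stretch were assigned is not stated.

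In control replicate 3 JUND stood at 1.93 times the mean of the other controls, a ratio that 1.42% of tested genes exceeded. JUNB stood at 1.40 times and JUN at 1.25 times that mean, while FOS stood at 0.590 times and FOSB at 0.712 times, from few reads. ATF3, EGR1, MAFF and FOSL2 were within 1.04 to 1.06 times. What set this library apart was not tested. Summed over the JUN family, the controls had 58.3, 49.9 and 78.5 RPKM and the knockdown 61.2, 66.7 and 60.8, with no separation of the groups. JUN was 51.0%, 52.3% and 43.8% of that sum in the controls and 40.4%, 39.1% and 39.9% in the knockdown, lower in every knockdown library. JUNB was 19.7 ± 0.942% in the controls and 25.1 ± 0.618% in the knockdown (SD, n = 3 each), without overlap. JUND was 28.3%, 28.5% and 37.1% in the controls and 33.9%, 36.5% and 34.9% in the knockdown, with overlapping groups.

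**Figure D4:**
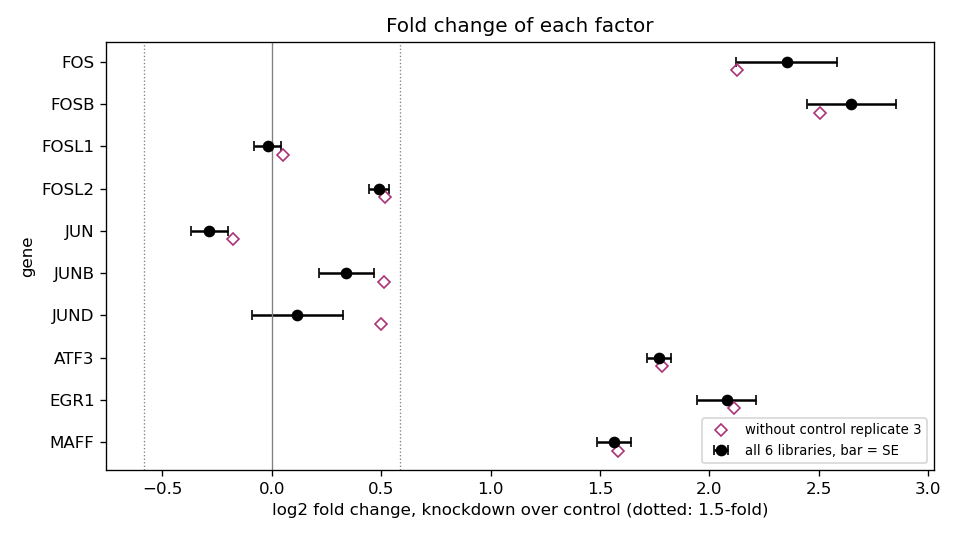
Log2 fold change of each gene with its SE over all 6 libraries (black), and the value without control replicate 3 (open diamonds); dotted lines mark 1.5-fold. JUND moves from 0.12 to 0.50 and JUNB from 0.34 to 0.51, whereas ATF3, EGR1 and MAFF barely shift.

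ATF3, a stress-induced relative of the FOS and JUN proteins that often represses, had the smallest p of the 10. It had 18.5, 19.0 and 19.4 CPM in the controls and 63.2, 65.8 and 65.5 in the knockdown, with little spread inside either group. In RPKM it went from 6.37 ± 0.111 to 22.0 ± 0.495 (SD, n = 3 each), a 3.41-fold rise (log2 fold change 1.77, SE 0.0540, edgeR adjusted p = 8.09e-10). This moved it from below FOSL2 and JUNB in the controls to above both in the knockdown, where its RPKM overlapped those of JUND.

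EGR1, a zinc finger factor that binds GC-rich sites and is induced through serum response factor, had 35, 37 and 43 reads in the controls (1.40, 1.78 and 1.69 CPM). The knockdown libraries had 263, 205 and 184 reads (6.87, 7.55 and 6.12 CPM), all above the controls. The log2 fold change was 2.08 (4.23-fold, SE 0.136; adjusted p = 1.77e-07 in edgeR), with a counting interval of 3.47 to 5.21 around a ratio of 4.23. Its relatives EGR2, EGR3 and EGR4 did not reach the count filter, with 3, 4 and 3 reads in all controls together and 9, 3 and 2 in the knockdown.

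MAFF had 6.47, 5.93 and 6.51 CPM in the controls and 19.3, 18.7 and 17.9 in the knockdown, with no overlap. The log2 fold change was 1.56 (2.96-fold, SE 0.0782; adjusted p = 2.33e-08 in edgeR). The other small MAF genes rose too, MAFG by 0.85 (SE 0.0462, edgeR adjusted p = 4.19e-08) and MAFK by 1.02 (SE 0.0651, edgeR adjusted p = 1.47e-07), both as log2 values; MAFK was picked after its value was seen. RefSeq has MAFF overlapping TMEM184B.

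In order of RPKM the controls had FOSL1 first, then JUN, JUND, JUNB, FOSL2, ATF3, MAFF, EGR1, FOS and FOSB. Neighbours whose libraries overlapped were JUN and JUND, JUND and JUNB, and FOS and FOSB. In the knockdown ATF3 came before JUNB and the order was otherwise the same; JUN and JUND, JUND and ATF3, and FOS and FOSB overlapped. For the CPM of each library, the exact permutation test (two-sided) gave p = 0.1 for FOS, FOSB, FOSL2, JUN, ATF3, EGR1 and MAFF, the smallest p that 3 against 3 allows. The exact test gave p = 0.2 for JUNB, 0.8 for JUND and 0.9 for FOSL1.

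Other immediate early genes went mostly the same way. This list and those below were chosen with earlier results of these data known, so their shares are descriptive only. Of 32 listed, 28 were tested. Of these, 20 rose (71.4%) and 6 fell (21.4%), beside 33.1% and 34.2% of all tested genes. The other 2 missed the threshold, and the median was 0.62 on the log2 scale. Of the 28, 8 were called and at least 2-fold higher and 0 at least 2-fold lower, beside 8.01% and 6.01% of all tested genes. NR4A1, an orphan nuclear receptor, rose from 1.04 ± 0.0231 to 10.1 ± 0.143 CPM (SD, n = 3 each; log2 fold change 3.28, SE 0.111, edgeR adjusted p = 1.61e-09), more than any of the 10 genes above. CSRNP1, a nuclear protein induced by AXIN1, rose by 1.88 (SE 0.0974), KLF4, a zinc finger factor, by 1.53 (SE 0.0633), and GEM, a small GTP-binding protein, by 1.16 (SE 0.0569). The 6 that fell, named after their values were seen, were BTG1 (−0.89), KLF6 (−0.66), MYC (−0.64), GADD45B (−0.45), DUSP1 (−0.29) and IER5L (−0.99). IER5L (SE 0.262) had 29.8, 20.1 and 53.5 CPM in the controls and 17.1, 18.3 and 17.0 in the knockdown. Its control replicate 3 was thus far above the other controls, and the fall did not pass edgeR's glmTreat test against 1.5-fold (adjusted p = 0.109). DUSP1 and KLF6 thus went the other way from FOS and EGR1.

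ERK feedback genes are transcribed when ERK is active and damp its pathway or mark its output. Most were higher: of 11 tested 8 rose (72.7%), 2 fell (18.2%) and 1 did not pass (median 0.70). Over all tested genes 33.1% rose and 34.2% fell. Of the 11, 2 were called and at least 2-fold higher and 1 at least 2-fold lower, beside 8.01% and 6.01% of all tested genes. DUSP5, a nuclear ERK phosphatase, rose from 43.1 ± 1.09 to 210 ± 4.67 CPM (SD, n = 3 each; 2.28, SE 0.0451, edgeR adjusted p = 4.84e-11). ETV4, an ETS factor, rose by 2.17 (SE 0.0779) and SPRED2, an inhibitor of the ERK pathway, by 0.76 (SE 0.0416). PHLDA1, at 575 ± 21.5 CPM in the controls, fell to 199 ± 1.66 (log2 fold change −1.53, SE 0.0421; adjusted p = 3.62e-10 in edgeR).

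Of 32 kinases and factors upstream, all tested, 11 were higher (34.4%) and 12 lower (37.5%), with a median of 0.05. These shares were close to the 33.1% and 34.2% of all tested genes. Lower in the knockdown were the ERK-activated kinases RPS6KA3 (−1.29, SE 0.0629) and RPS6KA2 (−1.57, SE 0.0791) and ELK4, an ETS partner of serum response factor (−1.15, SE 0.0599). SRF itself, named for its link to EGR1, was 79.7 ± 8.65 CPM in the controls and 81.9 ± 2.72 in the knockdown (SD, n = 3 each; edgeR adjusted p = 0.642). These are mRNA levels and give no reading of kinase activity.

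Of other leucine zipper factors, 9 were higher and 9 lower of 23 tested (39.1% each, median −0.08). Among all tested genes the shares were 33.1% and 34.2%. NFE2L3 (−1.43, SE 0.0448) and ATF4, the central factor of the integrated stress response (−0.77, SE 0.0397), fell, as did CEBPG from 206 ± 1.56 to 103 ± 1.27 CPM (SD, n = 3 each), so ATF3 and ATF4 moved in opposite directions. JDP2, which pairs with JUN and represses, fell by 1.04 on the log2 scale (SE 0.104) and was picked after its value was seen. Among 8 proteins that bind AU-rich mRNA, the kind of element that shortens the life of FOS mRNA, 2 rose and 3 fell (median −0.03). That is 25% and 37.5%, again beside 33.1% and 34.2% of all tested genes. ZFP36, which speeds decay and is itself induced early, rose by 0.69 (SE 0.0493), while ZFP36L2 (−0.84, SE 0.0669), KHSRP (−0.59, SE 0.0533) and TIA1 (−0.42, SE 0.0609) fell.

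Of 21 listed textbook targets of AP-1, among them FOSL1, 17 were tested. Of these, 8 rose (47.1%), 5 fell (29.4%) and 4 did not pass (median 0.14). Over all tested genes 33.1% rose and 34.2% fell, so movement in both directions is not particular to this list. PLAU, the urokinase protease, rose from 428 ± 20.5 to 918 ± 4.40 CPM (SD, n = 3 each; 1.10, SE 0.0440, edgeR adjusted p = 4.81e-09), and IL11, a cytokine, by 2.43 (SE 0.0980). CD44, an adhesion receptor (−0.97, SE 0.0437), and VEGFA (−1.05, SE 0.0543) fell. MMP1, the collagenase in which the AP-1 site is best known, was picked after its value was seen and fell from 92 reads in the controls to 21 in the knockdown (−2.53, SE 0.294, edgeR adjusted p = 1.75e-05). MMP3, MMP10, MMP13 and IL6 did not reach the count filter.

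**Figure D5:**
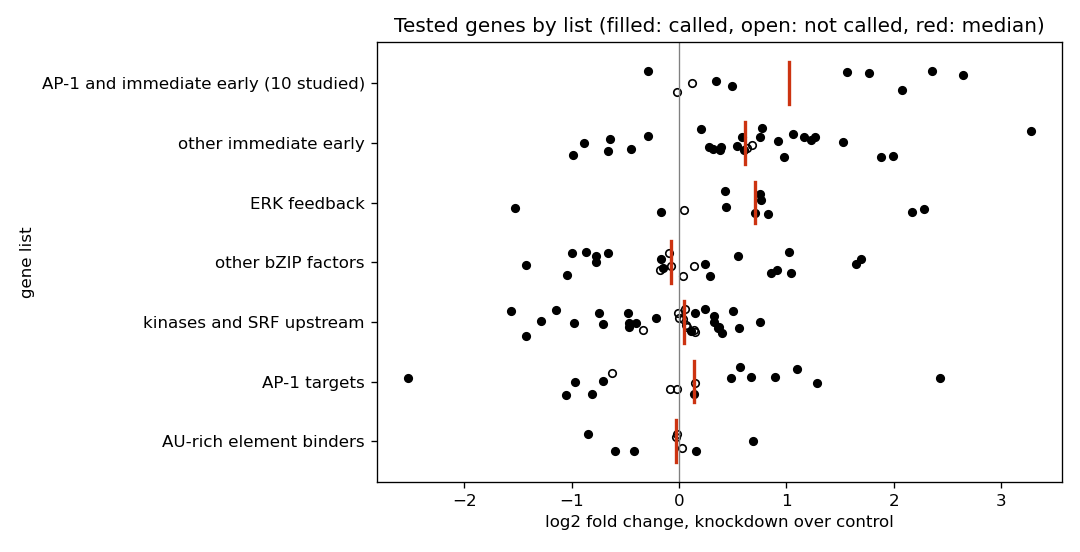
Log2 fold change of every tested gene in 7 lists, knockdown over control; filled points passed edgeR's test, open points did not, and red bars are medians. The medians of the 10 studied genes, the other immediate early genes and the ERK feedback genes are at 1.03, 0.62 and 0.70, and the other 4 lie between −0.08 and 0.14.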

How the data were processed

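The authors deposited, for each of 6 libraries, the count of reads aligned uniquely to each gene model and an RPKM after a size-factor adjustment, per the file headers. Reads were aligned with GSNAP to GRCh38, per the submitters' processing notes; its version, the annotation, the strand setting and the size-factor method: not given in the sources used here. For the 13110 genes checked (at least 20 reads in every library), the deposited RPKM was the count divided by 1 constant per library and 1 per gene. Groups came from the siRNA label. Replicates were numbered only as names.

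Counts were filtered with filterByExpr (minimum count 10, minimum total 15), TMM-scaled and tested with edgeR 4.0.16 (R 4.3.3; glmQLFit, glmQLFTest, two-sided). P-values were adjusted by Benjamini-Hochberg over 15190 genes, threshold 0.05. The code was tested on simulated data. RefSeq symbols matched 27814 of 30727 IDs. Alternatives were DESeq2 1.42.0 (size factors; Wald test), upper-quartile scaling, 2 other filters, limma-voom (limma 3.58.1), glmTreat at 1.5-fold, thinning, and leaving out each library. The members and lists were chosen with earlier results of these data known. Named genes were the 10 members, KMT5C and, per list, the 4 called genes with the smallest p; others are marked, and 1 gene that the rule names is not reported here. Depth limits FOS and FOSB most.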

Additional observations from a re-analysis of the deposited data

How the results depend on the processing

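No paired analysis was possible because the labels carry no replicate numbers. Across scaling, filter, test and thinning alternatives the 7 rises and the fall of JUN held, except that a minimum mean log2 CPM of 1 left FOS untested (6 rises). Against a 1.5-fold change 5 members rose and 0 fell, with 1606 genes higher and 1392 lower in all; that test asks for a larger change by construction. Leaving out 1 library gave 6 to 8 members higher and 1 lower, and 4533 to 5612 genes higher and 4651 to 5665 lower. JUNB lost its call in 5 of those fits and JUND gained one without control replicate 3; the cause was not tested. Of 139 results for members under alternatives, 130 stayed on their side of the threshold, 8 lost a call and 1 gained one. In 0 did the sign change with a call in either fit. FOSL1 and JUND, not called in the main fit, did change sign in some fits. FOS and FOSB rest on 28 and 38 control reads.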
